A study of Mus musculus with 3 samples.

Results

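Exons with antisense transcription were taken as the exonic regions of genes with at least 10 exonic reads on the strand opposite to the gene in at least 1 of 3 libraries. Of 25562 genes, 596 met this rule. The members were thus chosen by their antisense exonic reads in these same libraries, so those reads are given as a description. The rule did not use sense reads, position or overlap. Overlap is still tied to it, because a partner's sense read in shared exonic bases is an antisense read of the member. They fell into 2 classes: 368 overlapped a gene annotated on the opposite strand, and 228 did not. The libraries came from neurons of the medial ganglionic eminence (MGE) of C57Bl/6 mouse embryos at embryonic day 14, kept 10 days in culture. Their labels give the genotype as WT (wild type). All 3 cultures had been silenced overnight from day 9 with TTX (tetrodotoxin), which blocks sodium channels, and AP-5, which blocks NMDA receptors. The groups were 0 h (silenced only), 1 h and 6 h of depolarization in 55 mM KCl, with 1 library each of ribosome-depleted total RNA, ligated so that the strand of each read is known and sequenced on an ABi SOLiD instrument. With 1 library per time there is no replicate spread and no test between times, so a difference between times is one between 2 libraries. Each bracketed range is a 95% interval that treats reads as independent and covers counting error only, because each time has 1 library. It comes from the exact binomial distribution, or for odds from the exact conditional distribution of the odds ratio. Repeated reads at 1 position were kept, at 2.451, 2.597 and 2.332 reads per mapped locus at 0, 1 and 6 h. Nothing marks PCR copies, so the ranges can be too narrow.

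Antisense transcripts arise where genes on opposite strands overlap, where a transcript runs past its annotated end into a neighbour, or from dedicated noncoding RNA genes such as Tsix, which is transcribed across Xist. Genes that meet at their 3′ ends are called convergent or tail to tail, and genes that meet at their 5′ ends divergent or head to head. In neurons such pairs include Dlx1 and Dlx1as, and Ube3a with the antisense RNA that silences its paternal copy.

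The sequences that follow belong to RNAs on the antisense strand of members described in the text. Rpph1, the RNA component of ribonuclease P, which trims the 5′ ends of transfer RNA precursors, held more antisense reads than any other member. The first 150 of its 319 bases in GENCODE release M21 are printed, with no part in capitals.
Rpph1: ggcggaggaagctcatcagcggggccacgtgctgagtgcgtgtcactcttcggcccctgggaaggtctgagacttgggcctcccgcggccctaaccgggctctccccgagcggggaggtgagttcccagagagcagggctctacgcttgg

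Rtl1, an imprinted gene derived from a retrotransposon, lies opposite a cluster of microRNA genes. The reverse complements of all 5 hairpins looked up and of their 10 mature microRNAs were found in the Rtl1 transcript of that release. Mature sequences are from RefSeq (GRCm38.p6), with the seed (bases 2 to 8) in capitals, and no seed was shared among these 10.
miR-431-5p: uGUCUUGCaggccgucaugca
miR-431-3p: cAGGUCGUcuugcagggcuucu
miR-433-5p: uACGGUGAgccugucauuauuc
miR-433-3p: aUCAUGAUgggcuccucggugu
miR-127-5p: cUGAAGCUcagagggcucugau
miR-127-3p: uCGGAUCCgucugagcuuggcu
miR-434-5p: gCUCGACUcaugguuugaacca
miR-434-3p: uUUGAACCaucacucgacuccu
miR-136-5p: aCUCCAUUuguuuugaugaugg
miR-136-3p: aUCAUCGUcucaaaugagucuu

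Ovca2 had the largest ratio between times of any member with reads in both libraries. In the same release the noncoding gene 1700016P03Rik, which contains Mir212 and Mir132 outside its spliced transcripts, overlaps an Ovca2 exon from the opposite strand. The 3p forms of these microRNAs share the seed AACAGUC.
miR-212-3p: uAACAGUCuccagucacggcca
miR-132-3p: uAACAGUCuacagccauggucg
The libraries hold fragments of long RNA, so mature microRNA was not measured.

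Uniquely mapped reads numbered 8996897, 8549377 and 8579378 at 0, 1 and 6 h, and antisense exonic reads 34511, 33948 and 32415. This made 1.55%, 1.36% and 1.29% of all exonic reads. The members held 69.5%, 77.2% and 78.6% of these antisense reads. Reads that span a splice junction gave a direct measure of strand fidelity: 21, 13 and 11 were antisense, 0.0106% (0.00655% to 0.0162%), 0.00577% (0.00307% to 0.00987%) and 0.00493% (0.00246% to 0.00882%) of spliced reads. Of 1483 genes without overlap that had at least 1000 sense reads, 688 had no antisense exonic read, and their median antisense share was 0.0206%. Markers checked the culture: all 13 genes of MGE-derived interneurons had at least 20 sense reads in a library, none of 8 excitatory cortical genes and none of 6 microglial genes did, and Slc17a7, Neurod6 and Aif1 were at or below 3 reads in total. Of 8 oligodendrocyte lineage markers 5 reached 20 reads, summing over the list to 152 to 186 RPM (reads scaled by the TMM-adjusted total of sense exonic reads), with Mog at 0, and 1 of 6 endothelial and mural markers did, at 9.55 to 12.9 RPM. All 8 astrocyte and radial glia markers were present, summing to 2452 to 2689 RPM.

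Antisense reads per member, summed over libraries, ranged from 12 to 25410 with a median of 39. The minimum was met in all 3 libraries by 281 members, in 2 by 113 and in 1 by 202. Just inside the threshold, 67 genes had a highest count of exactly 10, 36 of them with an overlap. Just outside, 84 genes had a highest count of 9, 34 of them with an overlap. At the other end, 17200 genes had no antisense exonic read in any library.

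Opposite-strand overlap was far more frequent among members than among other genes, but this is partly built into the choice. The rule did not name overlap, yet a partner's sense read in shared exonic bases is an antisense read of the gene. In members with exon over exon, 95.05% of unspliced antisense reads lay in shared exons. The shares that follow are thus a description, and no independent relation is read from them. It was found for 61.7% of members and for 10.3% of the 24966 genes that were not members. Put the other way, 12.6% of the 2933 overlapping genes were members, against 1.01% of the 22629 genes without overlap. Among overlapping members, 88.3% shared exonic bases with an exon on the other strand, against 65.0% of all overlapping genes. These shares describe the annotation in the files, which is not independent between the 2 genes of a pair: 92 members had another member as their main partner, and 14 overlapped a member on the same strand and so share reads with it.

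Pooled over members, antisense reads were 24.01% to 26.46% of the exonic reads of both classes in every library. Overlapping members had 11549, 12756 and 12463 antisense reads against 34985, 40372 and 38148 sense reads at 0, 1 and 6 h. The antisense share was thus 24.8% (24.4% to 25.2%), 24.01% (23.65% to 24.38%) and 24.63% (24.25% to 25%). Members without overlap had 12437, 13442 and 13011 antisense reads against 34963, 37357 and 37743 sense reads, a share of 26.2% (25.8% to 26.6%), 26.5% (26.1% to 26.9%) and 25.64% (25.26% to 26.02%).

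One gene, Rpph1, supplied most of the antisense reads of the class without overlap. Its antisense reads numbered 7864, 8708 and 8838 and its sense reads 0, 1 and 0, which places the 3 libraries within 1.06-fold (1.03 to 1.10) of 0 h. The files annotate Rpph1 on the plus strand (chromosome 14, 51427122 to 51427446, mm9), while GENCODE M21 places it on the minus strand, so these reads are sense to the gene in that release. Without Rpph1 the class share was 11.6%, 11.3% and 9.96%, below that of the overlapping class. The median member gives the same order: its antisense share at 0, 1 and 6 h was 56.7%, 56.5% and 56.6% with an overlap and 29.0%, 27.8% and 28.8% without.

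**Figure D1:**
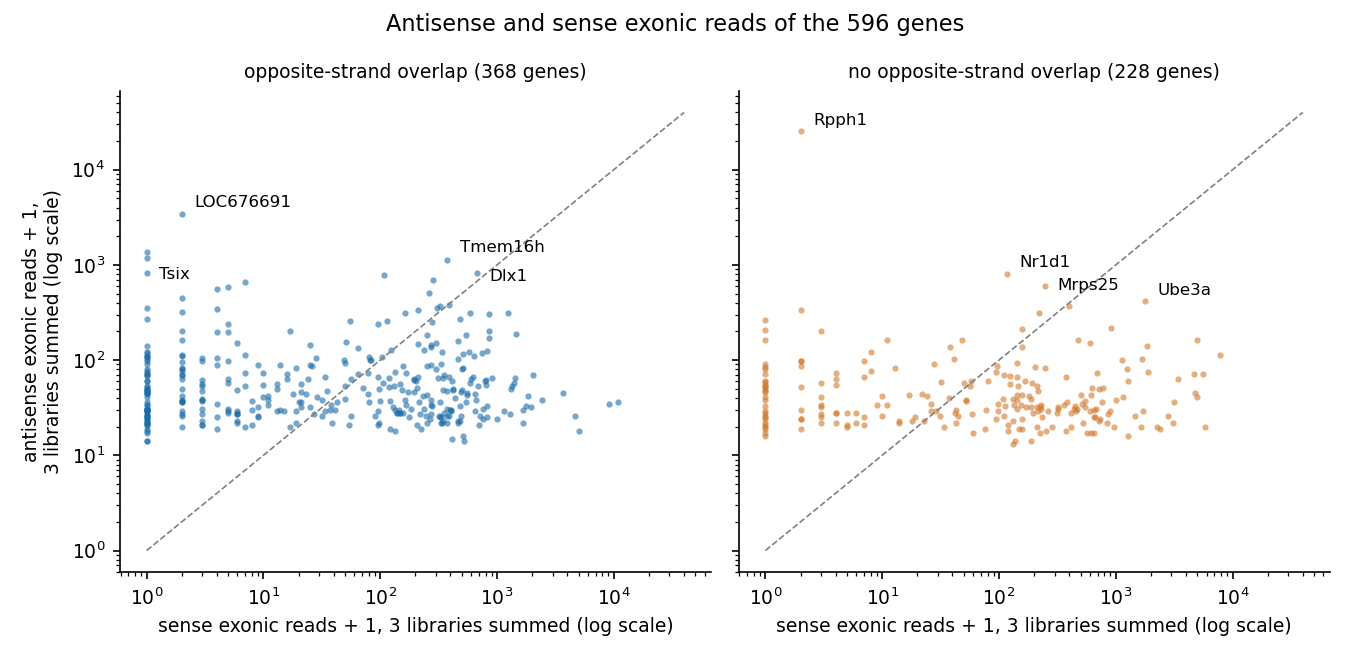
Antisense against sense exonic reads of each of the 596 genes, summed over the 3 libraries with 1 added, both axes logarithmic; the dashed line marks equal numbers. Genes with an opposite-strand overlap are on the left and genes without on the right, where Rpph1 stands apart at 25410 antisense reads.

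The balance between strands ranged from almost none to all antisense. With an overlap, antisense reads outnumbered sense reads in 197 of 368 members, and 119 had at least 90% antisense reads. Without overlap the same held for 91 of 228 and for 57. Sense reads summed to at most 3 in 108 and 53 members. By the strand given in the files, these exons carried RNA of the opposite strand with next to none of their own. They include Rpph1 and 2310043N10Rik, whose strand differs in GENCODE M21. Only 281 of 368 and 188 of 228 members were matched to that release, so a wrong strand in the files cannot be told apart for the rest. At the low end, 4 and 7 members had under 1% antisense reads. These were abundant RNAs: BC043098 had 18, 15 and 7 antisense reads beside 1457, 1647 and 1880 sense reads, and AA474408 had 5, 2 and 12 beside 1900, 1998 and 1865. Of the 1483 abundant genes, 24 of them members, 95% did not exceed a share of 0.397%. Over the summed libraries AA474408 lay below that value and BC043098 above it.

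Of the 70 loci listed for known opposite-strand transcription, 44 were in the files and 8 were members: Tsix, Dlx1, Dlx1as, Rtl1, Nr1d1, Ube3a, Zfhx2 and Mest. No member of that list passed the size rule on antisense reads at either time, a scaled ratio of at least 2 or at most 0.5 with an interval that excludes 1 and at least 10 antisense reads in 1 of the 2 libraries. Over the members compared, that rule called 4.0% higher and 6.91% lower at 1 h, and 5.11% higher and 11.9% lower at 6 h. A gene with 10 antisense reads in a library is a member by definition, so these shares are both the background and the members' own and nothing is read from the comparison.

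Tsix (chromosome X, 100626856 to 100680296) had 376, 251 and 202 antisense exonic reads and 0 sense reads in every library. Its partner Xist, the noncoding RNA that coats the inactive X chromosome, had 3191, 1983 and 2119 sense reads. Both were highest at 0 h: Tsix antisense reads were 1.68-fold (1.43 to 1.98) lower at 1 h and 1.97-fold (1.66 to 2.35) lower at 6 h. Reads in these exons come from the Xist strand, and the files give no exonic read of Tsix itself.

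Dlx1 (chromosome 2, 71367502 to 71372037), a homeobox gene of the interneuron lineage, had 182, 297 and 344 antisense reads beside 215, 251 and 205 sense reads. Antisense reads were fewer than sense reads at 0 h and more at 1 and 6 h. They were 1.46-fold (1.21 to 1.76) and 1.79-fold (1.49 to 2.15) higher, short of the size rule, while the sense ratios were 1.04 and 0.902. Dlx1as, on the other strand, had 104, 156 and 205 sense reads, a ratio of 1.34 (1.04 to 1.73) at 1 h and 1.86 (1.47 to 2.38) at 6 h. The odds of an antisense read in Dlx1 were 1.98-fold (1.51 to 2.60) higher at 6 h than at 0 h. Antisense reads also covered the second exon of Dlx1, at 32, 57 and 58, and its intronic sequence, at 250, 368 and 526, which places them beyond the annotated end of Dlx1as.

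Rtl1 (chromosome 12, 110828379 to 110833613) had 169, 213 and 181 antisense reads and 3, 0 and 0 sense reads. The 3 libraries were close, with ratios of 1.12 (0.914 to 1.38) and 1.01 (0.817 to 1.26). The reads lie on the strand of the 5 microRNA genes printed at the start, and the partner in the files, 6430411K18Rik, had 62, 63 and 51 sense reads.

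Nr1d1 (chromosome 11, 98629249 to 98636556), the clock repressor REV-ERB alpha, does not overlap Thra, the thyroid hormone receptor alpha gene, in the files, which end Thra 2823 bases away. Its antisense reads nevertheless numbered 278, 268 and 262 against 42, 49 and 26 sense reads, and 799 of 808 unspliced antisense reads lay in its last exon, the one nearest to Thra. Thra had 1150, 1300 and 1191 sense reads and in GENCODE M21 its exons reach over Nr1d1. Ube3a (chromosome 7, 66484120 to 66562097), a ubiquitin ligase gene, had 144, 147 and 126 antisense reads beside 464, 549 and 756 sense reads. Here the antisense reads were spread over the gene: 126 of 417 were in the last exon, and 1118, 831 and 961 more were in introns. The odds of an antisense read in Ube3a at 6 h were 0.537 (0.408 to 0.707) of those at 0 h, with an antisense ratio of 0.828 (0.646 to 1.06).

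Of the 10 overlapping members with most antisense reads, Tsix and Dlx1 have been described, and the other 8 lay within 1.5-fold of 0 h at both times. LOC676691, a predicted gene inside Rnf187 (a ubiquitin ligase gene), had 965, 1306 and 1195 antisense reads and 1, 0 and 0 sense reads. LOC632264, which meets the synaptophysin gene Syp tail to tail, had 406, 474 and 494, and LOC545339, inside Arhgef12, had 380, 388 and 408, both with no sense read. Such predicted genes, with symbols that start with LOC or EG, made up 82 of 368 members with an overlap and 36 of 228 without. Tmem16h, a member of the TMEM16 family, had 286, 384 and 448 antisense reads and 133, 158 and 83 sense reads. Nme7 (222, 250 and 304) lies tail to tail with Atp1b1, a sodium pump subunit gene with 3102, 3453 and 4919 sense reads. B3gat2 (187, 244 and 257) met Smap1, Snx22 (191, 238 and 229) met Ppib, and Slc3a1 (162, 176 and 241) met Prepl, all tail to tail.

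Apart from Ovca2, the leading members without overlap also stayed within 2-fold of 0 h. Mrps25, a mitochondrial ribosomal protein gene, had 203, 207 and 196 antisense reads, all in its last exon, and 104, 81 and 60 sense reads. Ahsa2, a relative of an HSP90 activator, had 96, 96 and 122, and Bace1, which encodes beta-secretase, had 78, 68 and 73 beside 301, 311 and 295 sense reads. Slc24a5, a cation exchanger of pigment cells, had 128, 126 and 80 antisense reads and 0, 1 and 0 sense reads, 196 bases from the convergent gene Myef2 (72, 94 and 60 sense reads). The oligodendrocyte marker Mog, with no sense read in any library, became a member through 14, 14 and 9 antisense reads, 107 bases from Zfp57 (207, 226 and 179 sense reads). Mog is named here for its values and not by the rule for named genes. Another member, 2310043N10Rik, was named for its high antisense share and not for its number of antisense reads. It had 65, 63 and 75 antisense reads and 2, 0 and 0 sense reads. By its gene identifier it is Neat1 in GENCODE M21, on the other strand. Rpph1, 2310043N10Rik, LOC100040262 and LOC100042565 were the 4 of 469 members matched to that release whose strand differed there. In the counts of calls given below, LOC100042565 is among the higher members and LOC100040262 among the lower ones at both times.

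**Figure D2:**
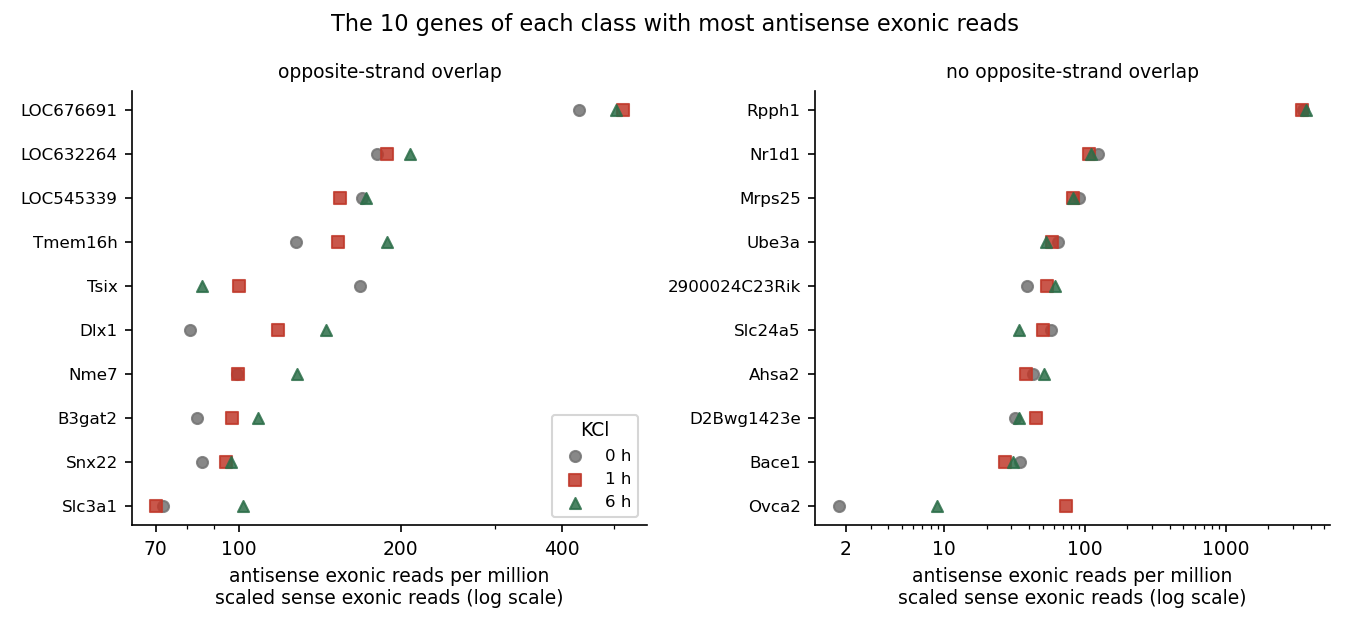
Scaled antisense exonic reads (RPM, logarithmic axis) of the 10 genes of each class with most antisense reads, with 1 point per library. The 3 libraries lie close together for most genes, while Ovca2 had 4, 185 and 21 reads at 0, 1 and 6 h.

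Antisense reads gathered at the 3′ ends of genes in both classes. Among members with at least 3 exons, the last exon held 87.6% of antisense reads in the 263 with an overlap, against 49.6% of their sense reads and 46.2% of their exonic bases. In the 176 without overlap the last exon held 75% of antisense reads, 48.1% of sense reads and 35.3% of bases. It held most antisense reads in 213 and 130 members. First exons held 4.19% and 5.75% of antisense reads, below their 7.47% and 7.33% of bases.

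**Figure D3:**
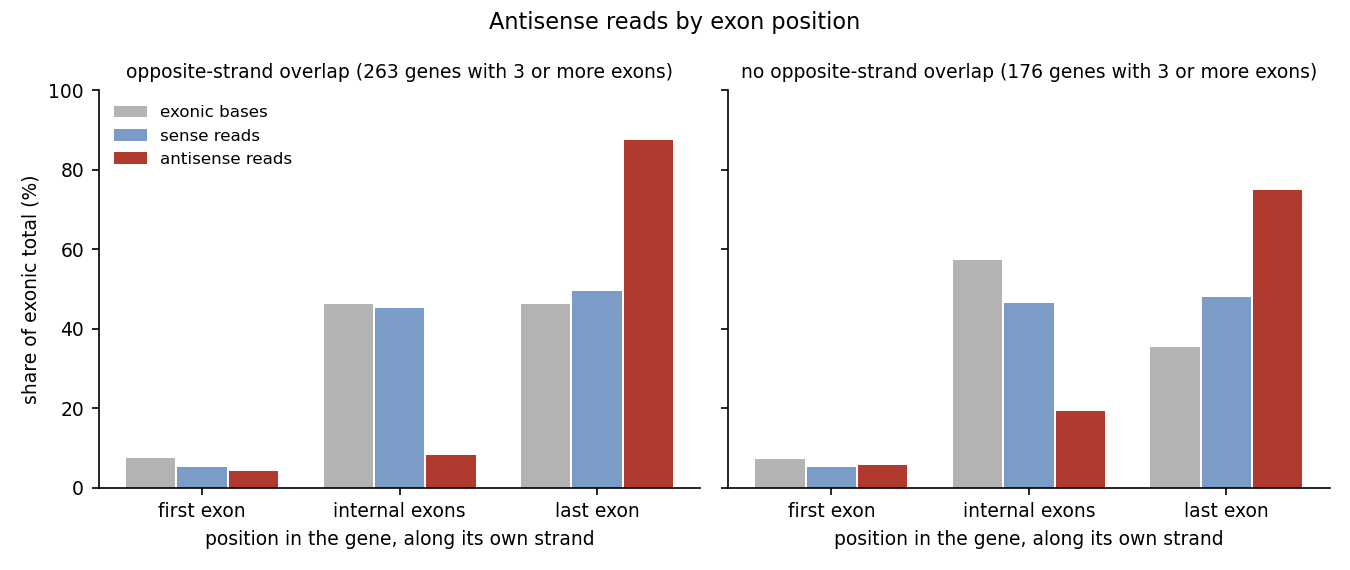
Share of exonic bases, sense reads and antisense reads in the first, internal and last exons of members with at least 3 exons, all libraries summed. The last exon holds 87.6% of antisense reads with an overlap and 75% without, more than its share of bases or of sense reads.

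Tail-to-tail overlap, in which 3′ ends meet, was the most frequent arrangement. It was found for 217 members, 25.2% of all genes so arranged. Members made up 10.0% of genes in head-to-head overlap (75), 7.45% of genes inside their partner (64) and 2.60% of genes that hold their partner (12). In the 325 members that shared exonic bases with a partner, 95.1% of unspliced antisense reads fell in the exons that touch an exon of the other strand, which hold 54.5% of exonic bases. That was 61.7 reads per 1000 bases in shared exons and 3.85 in the other exons of the same genes. In 8 of the 325, under 10% of antisense reads were in shared exons.

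Partners mostly had more sense reads than the antisense reads counted opposite them, but the counts overlap. At 0 h the partner had more sense reads than the member had antisense reads in 297 of 325 pairs, with medians of 104 and 16 reads. Across these pairs Spearman's rank correlation between the counts was 0.366, 0.376 and 0.427 at 0, 1 and 6 h. This is a description over pairs that share a library and partly share exonic sequence. A read in exonic bases shared by member and partner enters both counts. In these members 95.05% of unspliced antisense reads lay in exons that touch an exon of the other strand. The higher partner counts and the positive correlations are thus partly built in, and no relation between the genes is read from them.

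Of the members without an annotated overlap, under 50% had as their nearest opposite-strand gene a convergent gene within 5000 bases. A convergent gene that lay behind a nearer divergent one was not counted. Their median distance to the nearest gene on the opposite strand was 2649 bases, against 24091 for all genes without overlap and 13554 for the 8973 that had at least 20 sense reads in a library and were not members. A convergent gene within 5000 bases was the nearest for 102 of 228 (44.7%), against 17.7% of those 8973, while a divergent gene within that distance was as frequent in both sets (15.79% and 15.98%). Antisense reads in the 500 bases downstream of the gene outnumbered those upstream in 165 members without overlap, and the reverse held in 50. Summed over the class there was no such excess, with 3011, 3342 and 3753 upstream reads and 2914, 3351 and 3335 downstream reads. Of the upstream reads, 2561, 2888 and 3315 belonged to 2310043N10Rik, whose strand differs in GENCODE M21. Across the 102 members the antisense count did not go with the sense count of the convergent gene: Spearman's rank correlation was -0.014, 0.00645 and 0.0238.

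A later annotation holds overlaps that the files do not. Of the 228 members without overlap, 188 were matched to GENCODE M21, and 129 of them (68.6%) overlap an opposite-strand gene there, 112 by an exon. The comparison set was 8831 matched genes without overlap in the files that were not members and had at least 20 sense reads in a library. Of these, 39.84% did so, 26.01% by an exon. As with overlap in the files, such a difference is partly built into the choice of members. The opposite exons included Thra over Nr1d1, Nr2c2 over Mrps25, Usp34 over Ahsa2, Rnf214 over Bace1 and Snhg14 over Ube3a. No coordinates were carried between the builds.

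At 1 h, antisense reads were at least 2-fold higher in 12 of 338 compared members with an overlap and in 10 of 212 without. They were at least 2-fold lower in 24 and 14. At 6 h they were higher in 17 of 337 and 10 of 191 and lower in 36 and 27. Lower calls thus outnumbered higher ones at both times, by 38 to 22 and by 63 to 27, but this balance depended on the scaling. Scaled by uniquely mapped reads the split was 39 higher to 21 lower at 1 h and 33 to 44 at 6 h, and scaled by all antisense exonic reads it was 32 to 23 and 36 to 43. With Rpph1 left out of that total, a scaling chosen after seeing the data, it was 39 to 20 and 41 to 35. Antisense reads outside the members were lower at 1 and 6 h, at 4697, 3084 and 2929 RPM. The summed antisense reads of members without Rpph1 differed little, at 7194, 6960 and 7020 RPM. The part that the reads outside the members had in the lower calls was not tested. Both comparisons share the 0 h library. Of the 596 members, 202 reached 10 antisense reads in 1 library only. A call for such a member rests on the same count that made it a member, so its ratio can lie too far from 1 and its interval does not cover this.

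**Figure D4:**
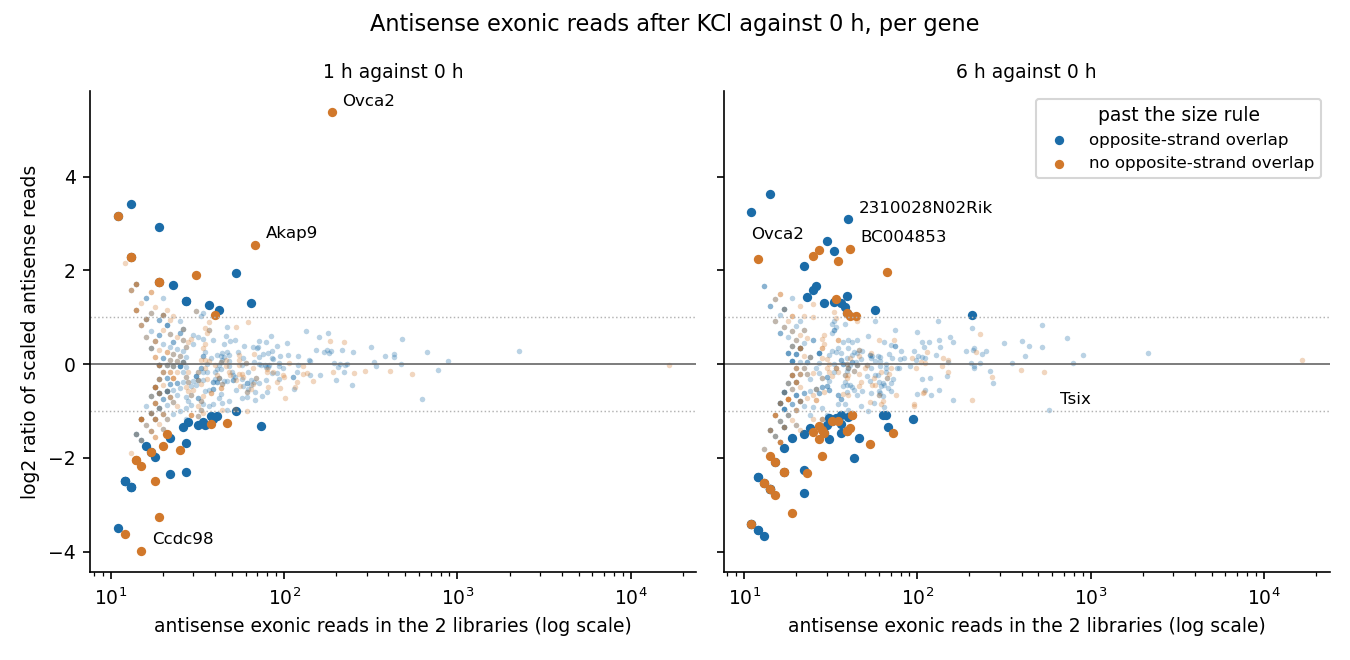
Log2 ratio of scaled antisense exonic reads at 1 h (left) and 6 h (right) to 0 h against the number of antisense reads in the 2 libraries (logarithmic axis), 1 point per gene, with genes past the size rule in full colour and dotted lines at 2-fold. Genes with 0 reads in 1 of the libraries are not drawn, and at 1 h Ovca2 stands apart.

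Ovca2 (chromosome 11, 74989445 to 74992310), a serine hydrolase gene, had 4, 185 and 21 antisense reads at 0, 1 and 6 h beside 47, 68 and 40 sense reads. Its antisense reads were 41.2-fold (15.8 to 153) higher at 1 h and 4.96-fold (1.68 to 19.9) higher at 6 h, while the sense ratios were 1.29 (0.877 to 1.91) and 0.805 (0.514 to 1.25). Of its 210 antisense reads, 209 were in its second and last exon. Dph1, whose last exon lies within that exon on the same strand and so shares its reads, had 0, 11 and 1, at least 3.27-fold higher at 1 h against a floor of 3 reads. The nearest opposite-strand gene in the files, LOC668604, had 1, 42 and 0 sense reads.

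Akap9, which encodes a kinase anchoring protein of the Golgi and centrosome, lies tail to tail with Cyp51, the lanosterol demethylase of sterol synthesis, with 469 bases between them. It had 9, 59 and 6 antisense reads, of which 67 of 74 were in the last of 48 exons, 5.85-fold (2.88 to 13.4) more at 1 h. Sense reads of Akap9 were 622, 550 and 727, and the odds of an antisense read were 7.40-fold (3.60 to 17.1) higher at 1 h. Antisense reads in Akap9 introns (57, 145 and 24) were highest at 1 h too. So were intronic sense reads of Cyp51 (98, 647 and 160), whereas its exonic reads were 571, 1279 and 1593, highest at 6 h.

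A gene chosen after its values were seen showed the same order of times. Ctsb, the gene of the protease cathepsin B, overlaps the end of Fdft1, which encodes squalene synthase of the same sterol pathway. Its antisense reads were 10, 27 and 7, 2.41-fold (1.13 to 5.58) higher at 1 h, beside 1035, 1293 and 1326 sense reads. Fdft1 had 105, 269 and 89 intronic and 85, 121 and 92 exonic sense reads.

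Other members higher at 1 h had few reads at 0 h. With an overlap, 9630013A20Rik, inside the protocadherin gene Pcdh17, had 10, 43 and 29 antisense reads, 3.83-fold (1.90 to 8.56) higher, beside 654, 1436 and 1191 intronic sense reads of Pcdh17. The single-exon 4930589O11Rik had 17, 47 and 23, Dhx57 2, 17 and 4, Cd72 1, 12 and 10, and Rnf123 1, 10 and 4. Without overlap, BC046404 had 6, 25 and 8 antisense reads, 74 bases from 2410006H16Rik, whose intronic sense reads were 5036, 6847 and 5888. Nr2f6, an orphan nuclear receptor gene, had 2, 11 and 7 and Mterfd3 1, 10 and 2. Dhx57, Rnf123, BC046404, Nr2f6 and Mterfd3 reached 10 reads at 1 h only, so that library both made them members and set their ratio.

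Several members lower at 1 h had 0 to 2 antisense reads left after KCl. Luzp1 had 17, 2 and 2 antisense reads, 9.53-fold (2.26 to 85.0) lower at 1 h and 8.99-fold (2.13 to 80.2) lower at 6 h. The nearest opposite gene, Aof2 (the histone demethylase gene Kdm1a), had 349, 508 and 563 exonic sense reads, which went the other way, and 273, 242 and 345 intronic ones. Ccdc98, a subunit gene of a BRCA1 complex, had 14, 1 and 3, and Txndc11 had 10, 1 and 3. A930008G19Rik had 11, 0 and 2, at least 4.11-fold lower at 1 h against the floor. Luzp1, Ccdc98, Txndc11 and A930008G19Rik reached 10 reads at 0 h only, so their membership rests on the library in which they were high. Yipf2, with more reads, had 51, 23 and 59, so that its 1 h value alone was low, at 2.49-fold (1.49 to 4.26) below 0 h. Its partner Carm1 had 177, 141 and 170 sense reads.

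At 6 h, 3 overlapping members that were higher had a partner that was itself at least 2-fold higher in sense reads (at least 20 sense reads in 1 of the 2 libraries). At either time, a read in exonic bases shared by member and partner enters both calls, so the 2 calls are not independent. 2310028N02Rik had 4, 5 and 36 antisense reads, 8.51-fold (3.05 to 32.9) higher, and its tail-to-tail partner Ppp2r5a, a regulatory subunit gene of protein phosphatase 2A, had 28, 34 and 104 sense reads, 3.51-fold (2.30 to 5.54) higher. LOC100040851 had 4, 3 and 26, 6.15-fold (2.13 to 24.2) higher, head to head with C030003D03Rik at 106, 78 and 422. Pigf had 6, 2 and 20, opposite the small GTPase gene Rhoq at 106, 133 and 246, and is named because the count is 3. Of the other higher members with an overlap at 6 h, 13 had a partner past neither limit and 1 a partner with too few reads. Of the 36 overlapping members that were lower at 6 h, 5 had a partner that was lower (Endog, Acot11, Ccdc111, Sash1 and Pigh) and none a higher one, 23 had a partner past neither limit and 8 a partner with too few reads. Over all genes with enough sense reads, 4.92% were higher and 5.42% lower at 6 h.

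At 1 h no higher member with an overlap had a higher partner: 9 of 12 partners passed neither limit and 3 had too few reads. Of the 24 lower ones, 19 had a partner past neither limit and 3 a partner with too few reads. The partner went the other way for 9430057O19Rik, with 10, 2 and 6 antisense reads opposite 2310016E02Rik at 14, 35 and 23 sense reads. It went the same way for E130314M14Rik, with 19, 9 and 9 opposite Zfp518 at 100, 56 and 50. Both pairs are named because their counts are 1.

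Downstream of Grin1, the gene of the subunit common to NMDA receptors, antisense reads were more numerous at 6 h over 3 genes. BC004853 (Lrrc26), 1070 bases from the end of Grin1, had 6, 5 and 35 antisense reads and no sense read, 5.52-fold (2.30 to 16.1) higher. In the 500 bases downstream of BC004853, on the side of Grin1, antisense reads differed less, at 31, 37 and 39. Beyond BC004853, 4930571C24Rik, not a member, had 0, 0 and 8. Farther on, Anapc2, a subunit gene of the anaphase-promoting complex, had 6, 0 and 29 beside 268, 280 and 210 sense reads, 4.57-fold (1.87 to 13.5) higher, with 2, 3 and 30 more in introns and 0, 0 and 15 in the 500 bases downstream. Grin1 itself had 402, 350 and 591 sense reads, 1.39-fold (1.22 to 1.58) higher at 6 h. The nearest opposite-strand gene to Anapc2 was Ssna1, divergent and 80 bases away, with 67, 72 and 88 sense reads.

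Further members without overlap were higher at 6 h. Gca, the grancalcin gene, had 4, 10 and 23 antisense reads, 5.44-fold (1.86 to 21.6) higher, and the convergent potassium channel gene Kcnh7 had 2109, 1643 and 4112 intronic and 98, 134 and 194 exonic sense reads. LOC100039099 had 13, 24 and 54 antisense reads, 3.93-fold (2.12 to 7.85) higher. Its nearest opposite gene, Sh3md4, lies 170161 bases away with 129, 112 and 301 sense reads. Bag4 had 9, 8 and 25.

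Among members lower at 6 h, Plekhh1 had 34, 23 and 9 antisense reads, 3.995-fold (1.876 to 9.471) lower, and its partner Pigh, of the glycosylphosphatidylinositol anchor pathway, had 46, 33 and 15 sense reads. Zfp335 had 19, 13 and 3 antisense reads, 6.70-fold (1.97 to 35.3) lower, and 82, 95 and 148 sense reads, so the 2 strands went opposite ways. Hexim1, an inhibitor gene of the elongation factor P-TEFb, had 19, 10 and 4, and Smpd3, a sphingomyelinase gene, 10, 5 and 0, at least 3.52-fold lower against the floor. Ttn, the titin gene, had 40, 40 and 13 antisense and 63, 49 and 30 sense reads.

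**Figure D5:**
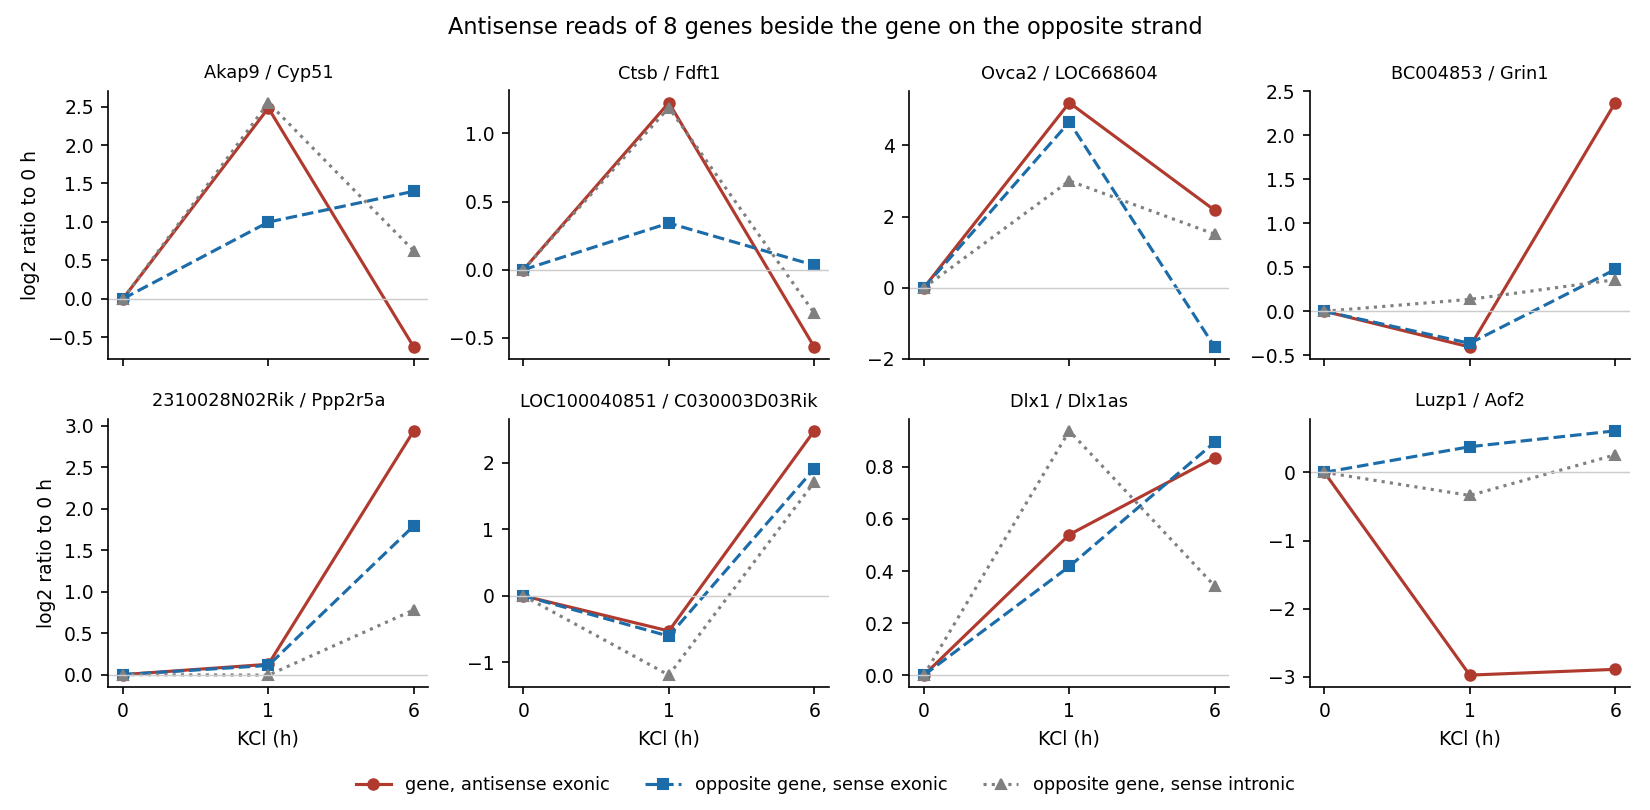
Log2 ratio to 0 h of scaled reads (0.5 reads added) for the antisense exonic reads of 8 members and for the sense exonic and intronic reads of the gene on the opposite strand, 1 library per time. In Akap9 with Cyp51 and Ctsb with Fdft1 the antisense reads and the intronic reads are highest at 1 h, while for Luzp1 the antisense reads are low at 1 and 6 h and the exonic reads of Aof2 are higher than at 0 h.

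Sense reads, which did not choose the members, stayed within 2-fold of 0 h in most of them. At 1 h, 6 of 324 compared members (1.85%) were at least 2-fold higher in sense reads and 8 (2.47%) lower, against 1.58% and 1.43% of all genes compared. At 6 h, 11 of 318 (3.46%) were higher and 13 (4.09%) lower, against 4.92% and 5.42%. The median log2 sense ratio of members was 0.03 at 1 h and -0.09 at 6 h, against 0.01 and 0.00 for all genes. Higher sense reads at 6 h were found for Mest, an imprinted hydrolase gene (596, 764 and 1457 reads), whose antisense reads were 9, 12 and 4.

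Antisense and sense calls were set side by side for each gene, although many members had too few sense reads to be compared. Of the 22 members with higher antisense reads at 1 h, none passed the sense rule in either direction, 15 passed neither limit and 7 had too few sense reads. Of the 38 lower ones, 17 passed neither sense limit and 21 had too few sense reads. Of the 27 higher at 6 h, 14 passed neither and 13 had too few. Of the 63 lower at 6 h, 27 passed neither, 33 had too few sense reads, 1 was higher in sense reads, and Ttn and Ccdc98 were lower. The odds of an antisense read were at least 2-fold higher in 13 and lower in 25 of 297 members at 1 h, which is 4.38% and 8.42%, and higher in 21 and lower in 41 of 278 at 6 h, which is 7.55% and 14.7%.

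No immediate early gene was a member. Members were 596 of all 25562 genes, so finding none in a list this short says little about these genes. Of 37 genes listed, 35 were in the files, and 28 of them were at least 2-fold higher in sense reads at 1 h and 16 at 6 h. Their summed sense reads were 1668, 13171 and 5556, and their summed antisense reads 19, 11 and 24. The highest antisense total of any of them was 12 reads, in Maff, with 3, 1 and 8.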

How the data were processed

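Each deposited table holds, for every gene, integer counts made by the authors of reads in exons, introns and 500 bases on either side, split by strand. Per the file headers, only uniquely mapped reads were counted and repeated reads were kept. Positions are on mm9, per the submitters' processing notes. Which aligner was used is not given in these sources. Dropping multiply mapped reads lowers the counts of genes that have near-identical copies, and genes that overlap on 1 strand share reads.

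Sense exonic totals were scaled with TMM factors (edgeR 4.0.16, R 4.3.3), and ratios carry exact Clopper-Pearson 95% intervals (scipy 1.17.1). Odds ratios are conditional estimates with their exact conditional 95% intervals. DESeq2 1.42.0 size factors, other totals, read minimums and overlap rules were the alternatives. A ratio to a library at 0 is a bound against 3 reads. GENCODE M21 (GRCm38) was used for names and overlaps within that build, with 469 of 596 members matched. Named members were those with most antisense reads, the largest differences by counting bound, the most one-sided shares and odds, and members of 2 lists. One member is not reported here. Members and lists were chosen with earlier results of these data known.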

Additional observations from a re-analysis of the deposited data

How the results depend on the processing

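No paired analysis was possible because each time has 1 library, and for the same reason no replicate could be left out. Counting error at low reads limits the calls: a floor of 3 reads was 1.19 to 1.34 RPM and the member minimum 3.98 to 4.46 RPM. With at least 20 antisense reads in 1 library the members were 188 with an overlap and 87 without, and with at least 10 in each library 195 and 86. The extended gene bounds and an overlap of at least 100 bases moved neither number by over 1.5 times.

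Counts of members at least 2-fold different are given as higher and lower with an overlap, then higher and lower without. The reported counts were 12, 24, 10 and 14 at 1 h and 17, 36, 10 and 27 at 6 h. Scaling by uniquely mapped reads gave 19, 12, 20 and 9 at 1 h, and scaling by all antisense exonic reads gave 13 lower with an overlap and 16 higher without. Scaling by antisense reads without Rpph1, chosen after seeing the data, gave 19, 12, 20 and 8 at 1 h, and at 6 h 18 lower with an overlap and 17 higher and 17 lower without. These scalings moved every log2 ratio by 0.15 to 0.26, which is why calls near the limit changed sides. DESeq2 size factors moved no count by over 1.5 times. A minimum of 20 reads left 6, 10, 4 and 2 at 1 h and 16 and 13 lower at 6 h, since fewer members were compared. With no minimum there were 45 lower with an overlap and 24 higher and 77 lower without at 1 h, and 23 higher and 57 lower without at 6 h, over all genes with a read. Extending gene bounds by 500 bases left 5 higher without overlap at 1 h.

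The antisense share as a median over members was 56.7%, 56.5% and 56.6% with an overlap and 29.0%, 27.8% and 28.8% without at 0, 1 and 6 h. Without Rpph1, also chosen after seeing the data, the pooled share was 11.6%, 11.3% and 9.96%. No ratio of a member named for its difference changed direction under the scalings.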
